A study of Mus musculus with 12 samples.

Results

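The genes described here are 10 smooth-muscle contractile genes, chosen by name: the actins Acta1, Acta2 and Actg2, the actin-binding proteins Tagln (transgelin) and Cnn1 (calponin 1), the myosin subunits Myl9 and Myh11, the tropomyosins Tpm1 and Tpm2, and the transcription factor Srf. All 10 were among the 54446 genes of the count table, and all 10 were among the 14724 genes tested. They were measured by RNA-seq in NIH3T3 cells, an established line of mouse embryonic fibroblasts. Wild-type cells and ΔN-VEGF cells, which carry the deletion labelled dNVEGF, were each kept in normoxia (air with CO2) or in hypoxia (below 0.2% oxygen) for 16 h, with 3 samples in each of the 4 groups and 12 in all. The deletion was made with CRISPR in both alleles of the stretch that codes for N-VEGF, the N-terminal part that is split off the long form of VEGF, and the selection cassette was then removed in 2 clones. The deletion and the choice of these clones cannot be told apart. Nothing in the labels says whether the 3 samples of a group came from separate cultures, so the p-values measure the spread between these samples only.

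Smooth-muscle actin, calponin, transgelin and their partners form the contractile apparatus of smooth muscle cells, and fibroblasts that turn on part of this set are called myofibroblasts. The genes share a regulator, SRF, which binds a DNA element called the CArG box. SRF acts with cofactors of the myocardin family, which respond to the pool of free actin, or with ternary complex factors, which respond to growth factor signalling. The cells were not labelled as myofibroblasts, and the set was not uniformly present. Acta2, Tpm1 and Tpm2 were well counted in every sample, but Tagln had only 4 to 46 reads per sample and Myh11 had 3 to 17. On the GRCm38 build, Acta2 (ENSMUSG00000035783) lies on the minus strand of chromosome 19, from 34241090 to 34255336. Cnn1 (ENSMUSG00000001349) lies on the plus strand of chromosome 9, from 22099216 to 22109630, and Myl9 (ENSMUSG00000067818) on the plus strand of chromosome 2, from 156775420 to 156781658. Tagln and Tpm1 are also on chromosome 9, and the others are spread over separate chromosomes. Values are for whole genes, summed over exons.

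The sequences that follow show CArG elements in front of the contractile genes, because this element is what the set is known to share. A promoter table from RefSeq (mouse build GRCm38.p6, 250 bases before the start site searched) held 7 of the 10 genes, without Actg2, Tagln and Myh11. The element was searched as the bases CC, then a centre of 6 bases, then GG, which reads alike on both strands. A centre of only A and T was found in 3 of the 7 promoters, against 1.47% of 32851 promoters. A centre with at least 5 of its 6 bases A or T, which includes the stricter form, was found in 4 of the 7, against 8.59%. Each window is written 5′ to 3′ along the gene's strand, with the element at its centre in capitals, and 6 of the 9 matches are shown in this way:
Acta1, chr8:123894814-123894873, minus strand, stricter form: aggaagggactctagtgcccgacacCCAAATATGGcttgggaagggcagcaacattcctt
Acta1, chr8:123894946-123895005, minus strand: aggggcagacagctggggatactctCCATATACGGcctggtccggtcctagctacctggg
Acta2, chr19:34255423-34255482, minus strand: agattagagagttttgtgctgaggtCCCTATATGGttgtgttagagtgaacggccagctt
Acta2, chr19:34255374-34255432, minus strand: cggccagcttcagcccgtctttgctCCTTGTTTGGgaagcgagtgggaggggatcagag
Myl9, chr2:156775278-156775337, plus strand, stricter form: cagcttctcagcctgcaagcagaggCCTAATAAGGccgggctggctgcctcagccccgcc
Srf, chr17:46556210-46556269, minus strand, stricter form: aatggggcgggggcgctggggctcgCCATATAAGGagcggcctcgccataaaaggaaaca

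The elements of Acta2 began 84 and 34 bases before the RefSeq start site, and the capitalised element of Srf began 82 bases before its own. The RefSeq start of Acta2 lies upstream of the gene end given above (34255336), so distances from that end are larger. A second match of Srf, of the stricter form, stands in lower case in the same window, and a further match each of Acta1 and Myl9 is not printed. The letters ACGTG, a form of the core of the element bound by hypoxia-inducible factors, were in 0 of the 7 windows on either strand, against 16.6% of all promoters. Other forms of that core were not searched, and 7 windows are too few to tell 0 from that share. No match was found for CArG in the windows of Cnn1, Tpm1 and Tpm2. These are matches of letters in a short window and not measured binding. The 10 genes were chosen as contractile genes known to be driven by SRF, so the shares with CArG are not independent of that choice.

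Counts on genes ranged from 30519052 to 43056690 per sample. Levels are given as CPM, a gene's count scaled to the library's total after TMM normalization, and differences as log2 fold changes with a standard error (SE) from edgeR's quasi-likelihood test over all 12 samples. A gene was called at a Benjamini-Hochberg adjusted p below 0.05, with no threshold of fold change. All 10 genes of a list of known hypoxia-induced genes were called higher in hypoxia in both lines, among them Ankrd37 (5.42 and 4.67), Car9 (5.38 and 5.84) and Bnip3 (4.45 and 4.54). Between the lines, Bnip3 was higher in ΔN-VEGF hypoxia (0.43), and in ΔN-VEGF normoxia Ankrd37 was higher (0.73) and Egln3 lower (-1.19). The call of Bnip3 was lost with scaling to total counts, and that of Ankrd37 with the replicate number as a block. The deletion is a part of a single gene and could not be checked in counts per gene. In these bulk samples, fewer cells that express a gene and less RNA per cell cannot be told apart.

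Sample 2 of wild-type normoxia stood apart. Its log2 CPM correlated with samples 1 and 3 at 0.956 and 0.957, against 0.996 between those. In ΔN-VEGF normoxia, sample 2 also stood off, at 0.986 against 0.996. In wild-type normoxia, 9 of the 10 contractile genes were higher in sample 2 than in both others, with a median ratio of 2.48 to their mean, and in ΔN-VEGF normoxia 7 were, with a median ratio of 1.36. Sample 2 was also above both others for 8 of the 10 genes in wild-type hypoxia and for 9 in ΔN-VEGF hypoxia, with median ratios of 1.1 and 1.15. In the wild-type sample, the summed CPM of the hypoxia-induced list was 2629, against 1425 and 1383. That of a list of TGF-beta pathway genes was 7049, against 12700 and 11900. The part of these differences in the results was not tested. The calls of the contractile genes are therefore also given without both normoxia samples numbered 2.

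**Figure D1:**
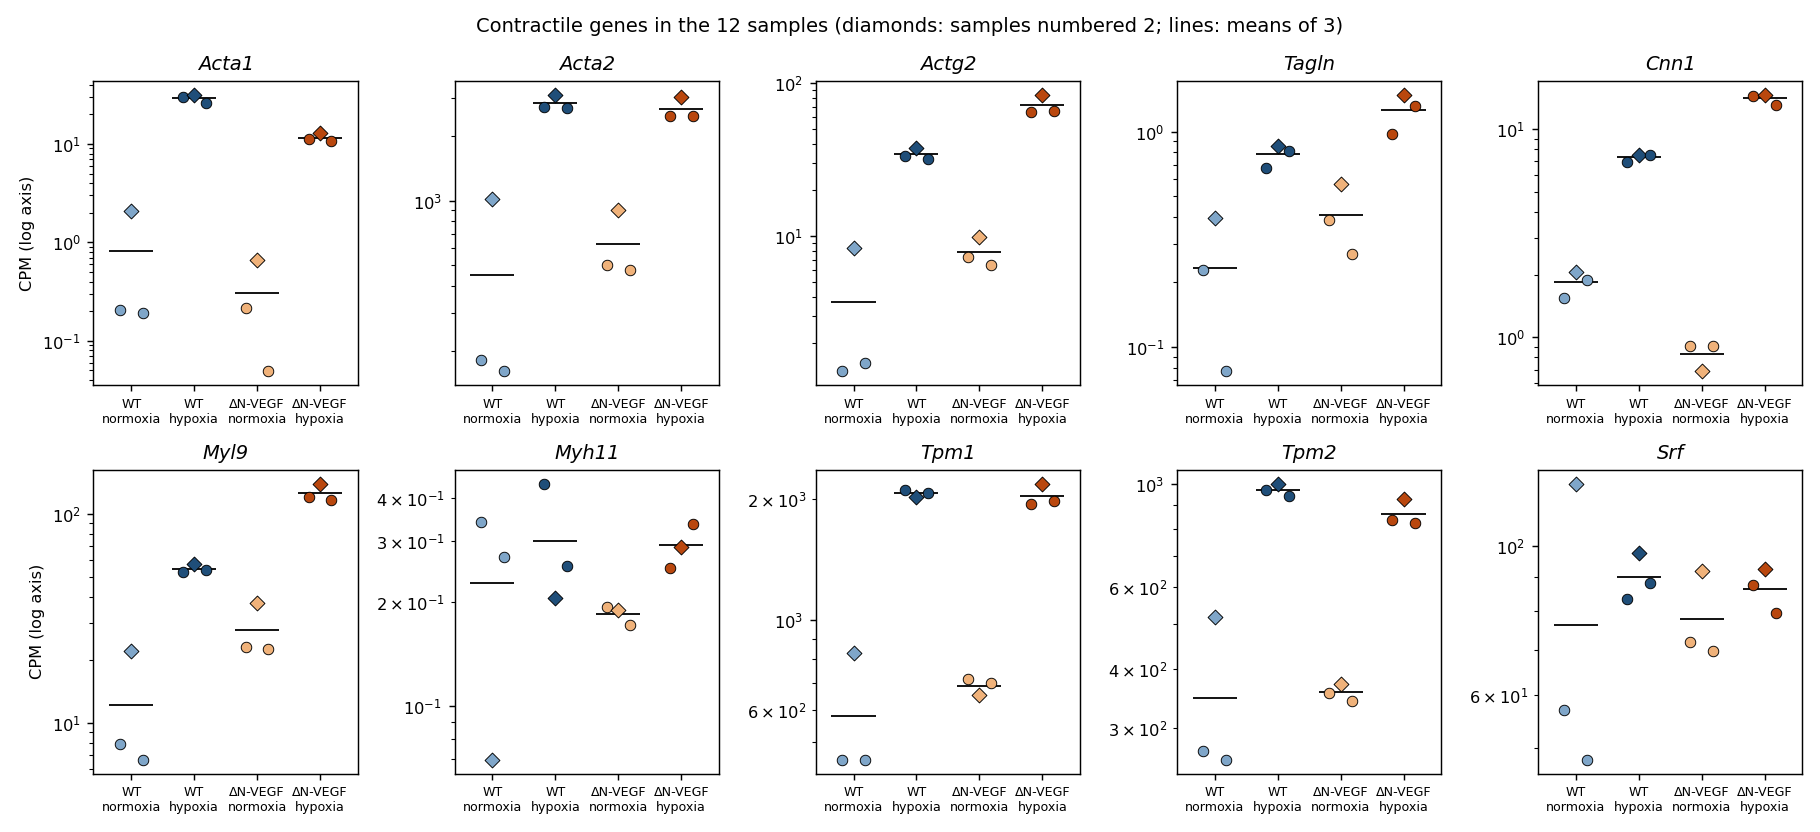
CPM of each contractile gene (log axis) in the 12 samples, coloured by group, with the mean of 3 as a line and the samples numbered 2 as diamonds. For Acta2 all hypoxia samples lie between 2480 and 3112 CPM, above all normoxia samples (160.5 to 1014), and in wild-type normoxia the diamond lies far above both circles.

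The actins rose in both lines. Acta2, the smooth-muscle alpha-actin that marks myofibroblasts, was at 180.3, 1014 and 160.5 CPM in wild-type normoxia and at 2734, 3112 and 2692 CPM in wild-type hypoxia. The ΔN-VEGF cells had 499.7, 900.5 and 476.2 CPM in normoxia and 2480, 3033 and 2490 CPM in hypoxia. The hypoxia samples lay above the normoxia samples in both lines without overlap, and the hypoxia levels of the lines overlapped. Acta2 took 0.0213%, 0.103% and 0.0194% of all counts in wild-type normoxia and 0.263% to 0.298% after hypoxia. In wild-type cells Acta2 rose with hypoxia by a log2 change of 2.66 (SE 0.61, adjusted p 0.0058). The ΔN-VEGF change was 2.09 (SE 0.60, adjusted p 0.012). Without both normoxia samples numbered 2, these values were 4.07 (SE 0.10) and 2.44 (SE 0.09).

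Acta1, the skeletal-muscle alpha-actin, had 9, 89 and 10 reads in wild-type normoxia and 1150, 922 and 1018 in wild-type hypoxia. The ΔN-VEGF cells had 10, 28 and 2 reads in normoxia and 362, 402 and 347 in hypoxia. It was nearly silent in normoxia and clearly counted in each hypoxia sample. The rise of Acta1 was 36.0-fold in wild type (log2 5.17, SE 0.78, adjusted p 0.00041). It was 37.3-fold in the ΔN-VEGF line (log2 5.22, SE 0.84, adjusted p 0.00036). Without the normoxia samples numbered 2 the log2 changes were 7.18 and 6.36.

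Actg2, the smooth-muscle gamma-actin, was at 1.30, 8.31 and 1.46 CPM in wild-type normoxia and at 33.5, 37.4 and 31.8 CPM in wild-type hypoxia. It was at 7.32, 9.85 and 6.47 CPM in ΔN-VEGF normoxia and at 65.0, 83.9 and 65.4 CPM in ΔN-VEGF hypoxia. Every hypoxia sample was above every normoxia sample, and each ΔN-VEGF hypoxia sample was above each wild-type hypoxia sample. The log2 rise was 3.22 for wild type (SE 0.58, adjusted p 0.0013) and 3.18 for ΔN-VEGF (SE 0.57, adjusted p 0.00075), and without the normoxia samples numbered 2 it was 4.62 and 3.36.

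The tropomyosins, which lie along the actin filament, rose in both lines. Tpm1 was at 450.1, 831 and 451 CPM in wild-type normoxia and at 2106, 2023 and 2065 CPM in hypoxia, a log2 change of 1.84 (SE 0.20, adjusted p 4.8e-05). In ΔN-VEGF cells Tpm1 was at 714, 654 and 697 CPM in normoxia and at 1943, 2183 and 1974 CPM in hypoxia, a log2 change of 1.56 (SE 0.20, adjusted p 8e-05). The spread among the hypoxia samples was small, and the lines overlapped there. For Tpm2 the wild-type rise was 1.49 (SE 0.22, adjusted p 4e-04), from a mean of 347 ± 148 to 971 ± 30.9 CPM (SD, n = 3; model fitted across all genes by edgeR). The ΔN-VEGF rise was 1.28 (SE 0.22, adjusted p 0.00062), from 357 ± 15.8 to 864 ± 56.4 CPM in the same model. Without the normoxia samples numbered 2, Tpm1 rose by 2.2 and 1.52 and Tpm2 by 1.9 and 1.3.

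Myl9, the regulatory light chain of smooth-muscle myosin, was at 7.88, 22.1 and 6.63 CPM in wild-type normoxia and at 52.5, 57.3 and 53.5 CPM after hypoxia. It was at 23.1, 37.4 and 22.6 CPM in ΔN-VEGF normoxia and at 120.6, 139 and 116 CPM in ΔN-VEGF hypoxia. The ΔN-VEGF samples were above all wild-type samples in the same oxygen. The log2 rise of Myl9 with hypoxia was 2.16 for wild type (SE 0.39, adjusted p 0.0014) and 2.18 for ΔN-VEGF (SE 0.39, adjusted p 0.00073), or 2.92 and 2.45 without the normoxia samples numbered 2. Its partner Myh11, the smooth-muscle myosin heavy chain and a late marker of smooth muscle, had 3 to 17 reads in all samples. Its log2 difference was 0.41 (95% interval -0.61 to 1.43) for wild type, where the groups overlapped. It was 0.65 (-0.43 to 1.73) for ΔN-VEGF, where all hypoxia samples lay above the normoxia samples. Neither was called, and no difference was detectable at this depth.

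Cnn1, an actin-binding regulator of contraction, was at 1.55, 2.07 and 1.89 CPM in wild-type normoxia and at 6.93, 7.50 and 7.49 CPM after hypoxia. The ΔN-VEGF cells had 0.904, 0.687 and 0.907 CPM in normoxia and 14.4, 14.6 and 13.1 CPM in hypoxia. The ΔN-VEGF samples were thus the lowest of the 12 in normoxia and the highest in hypoxia. The log2 rise of Cnn1 was 1.99 for wild type (SE 0.15, adjusted p 2.5e-06) and 4.07 for ΔN-VEGF (SE 0.16, adjusted p 1.7e-08). Samples numbered 2 lay near the others for Cnn1, and without those of normoxia the changes were 2.08 and 3.94.

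Tagln, an actin cross-linker, had 10, 17 and 4 reads in wild-type normoxia and 26, 25 and 32 in wild-type hypoxia. The ΔN-VEGF line had 18, 24 and 11 reads in normoxia and 31, 46 and 43 in hypoxia. The called rises, of 1.76 (SE 0.45, adjusted p 0.011) and 1.61 (SE 0.42, adjusted p 0.0075), rest on these few reads. They are uncertain also because 52.3% of the 80-base stretches of its exons also belong to genes annotated on the opposite strand (Gm48529 and Pcsk7), and the strand setting of the counting was not stated. In the fit of only the 6 wild-type samples the adjusted p was 0.052, and without the normoxia samples numbered 2 both rises were called, at 2.39 and 1.9.

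Srf itself was at 56.9, 124 and 47.9 CPM in wild-type normoxia and at 83.5, 97.7 and 88.1 CPM after hypoxia. The ΔN-VEGF line had 71.9, 91.7 and 69.8 CPM in normoxia and 87.5, 92.3 and 79.3 CPM in hypoxia. The groups overlapped, and the log2 differences were 0.24 (SE 0.29, adjusted p 0.55) and 0.15 (SE 0.29, adjusted p 0.68). Without the normoxia samples numbered 2, Srf was called higher in hypoxia in both lines, by 0.78 (adjusted p 4.7e-08) and 0.28 (adjusted p 0.0039).

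In wild-type cells, 8 of the 10 genes were called higher in hypoxia and 0 lower, where 18.2% of all tested genes were called higher and 18.3% lower. Their median log2 change was 1.92, and that of all tested genes was -0.07. In ΔN-VEGF cells the count was again 8 higher and 0 lower, where 26.9% of all tested genes were called higher and 26.4% lower, with medians of 1.85 and -0.01. The genes not called were Myh11 and Srf in both lines. Without both normoxia samples numbered 2, 9 were called higher in each line, where 32.8% (wild type) and 35.4% (ΔN-VEGF) of 15083 genes were.

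**Figure D2:**
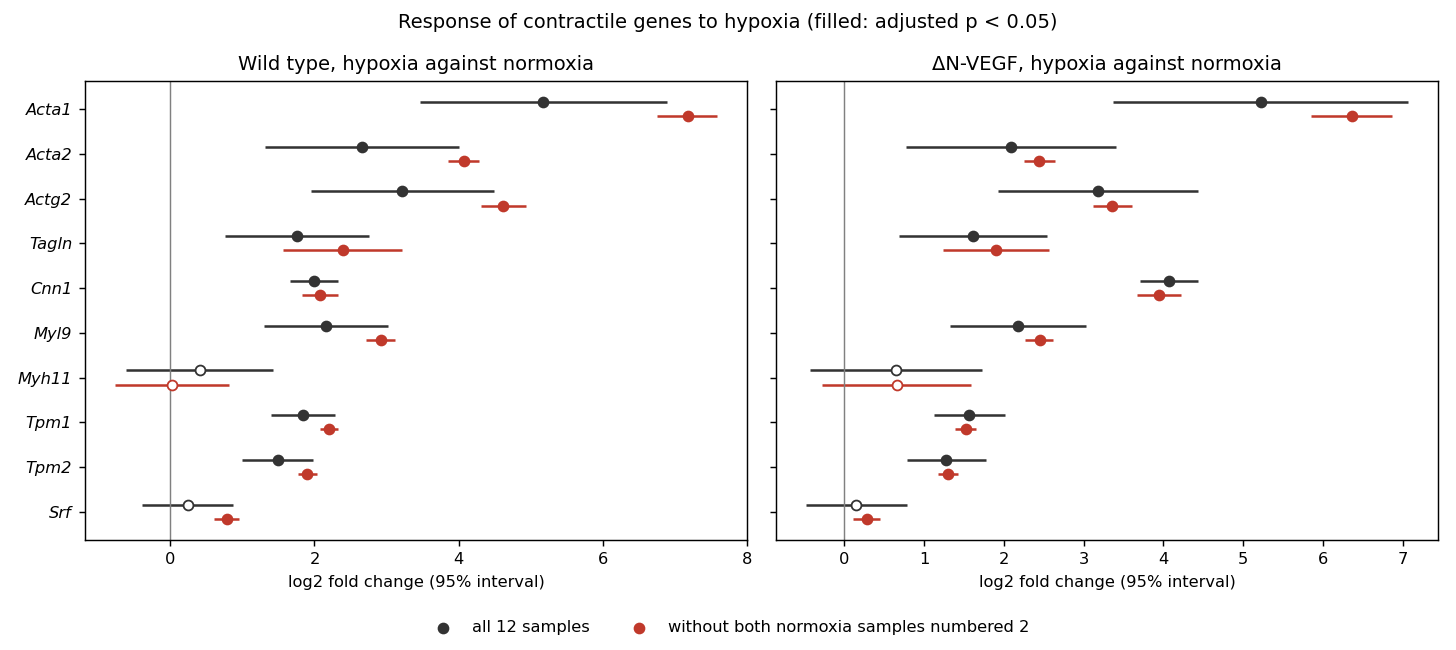
Log2 fold change of each gene in hypoxia against normoxia with its 95% interval, in wild-type (left) and ΔN-VEGF cells (right), over all 12 samples (black) and without both normoxia samples numbered 2 (red), filled where called. The 8 called genes lie right of 0 in both lines, and the red wild-type values of the actins lie further right, up to 7.18 for Acta1.

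ΔN-VEGF and wild-type cells were compared to ask whether the set differed between the lines at the same oxygen. In normoxia, 1 of the 10 genes was called lower (Cnn1) and 0 higher, where 2.97% of tested genes were called lower and 1.39% higher. Cnn1 was lower in ΔN-VEGF cells (log2 difference -1.14, SE 0.16, adjusted p 0.0037). The call was lost in the fit of only the 6 normoxia samples (adjusted p 0.22, and 0.24 with the replicate block), which called 0.0502% of tested genes higher and 0.0574% lower without the block. Myl9 was higher in each ΔN-VEGF sample than in each wild-type sample, with a log2 difference of 1.19 that was not called (SE 0.38, adjusted p 0.11). It was called with the replicate number as a block, at 1.28 (adjusted p 0.041).

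Without both normoxia samples numbered 2, the comparison in normoxia read differently. Then 6 genes were called higher in ΔN-VEGF cells, where 27.8% of tested genes were, and Cnn1 lower, where 25.8% were. The 6 were Actg2 (2.32), Myl9 (1.67), Acta2 (1.53), Tpm1 (0.66), Srf (0.45) and Tpm2 (0.43), with adjusted p from 8.4e-11 to 0.00023. Leaving out only sample 2 of wild-type normoxia gave 7 higher, with Tagln added (1.47, adjusted p 0.02), and Cnn1 lower, in a fit that called 25.7% of tested genes higher and 23.2% lower. The normoxia difference of Acta2 between the lines thus moved from 0.47 (SE 0.58) to 1.53 (SE 0.09) with the choice of samples.

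In hypoxia, Cnn1 and Myl9 were called higher in ΔN-VEGF cells and 0 genes lower, where 10.8% of tested genes were called higher and 9.36% lower. Cnn1 was higher by 0.94 (SE 0.14, adjusted p 0.0015) and Myl9 by 1.2 (SE 0.38, adjusted p 0.045). The call of Myl9 was lost when any of the 6 hypoxia samples was left out (adjusted p 0.095 to 0.14). In the hypoxia samples the groups also did not overlap for Acta1, which had a mean of 29.1 ± 2.89 CPM for wild type and 11.6 ± 1.17 CPM for ΔN-VEGF (SD, n = 3), nor for Actg2, Tagln and Tpm2. These genes were not called in the fit over all 12 samples, whose estimate of the spread includes the normoxia samples.

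In a fit of the 6 hypoxia samples alone, 6 of the 9 genes tested there (without Myh11) were called, where 27.9% of all tested genes were called higher and 29.1% lower. Cnn1 (0.94), Myl9 (1.19), Actg2 (1.06) and Tagln (0.68) were higher in ΔN-VEGF cells, with adjusted p from 4.2e-10 to 0.017. Acta1 (-1.33, adjusted p 2.4e-09) and Tpm2 (-0.18, adjusted p 0.017) were lower. Acta2 differed by -0.10 (SE 0.08, adjusted p 0.28) and Tpm1 by -0.03 (SE 0.06, adjusted p 0.69). Over all 12 samples neither Acta1 (adjusted p 0.18) nor Actg2 (adjusted p 0.19) was called.

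The test of whether the lines responded differently to hypoxia called 1 gene, Cnn1, where 2.21% of tested genes were called positive and 1.15% negative. The Cnn1 response was larger in ΔN-VEGF cells by 2.08 on the log2 scale (SE 0.21, 95% interval 1.61 to 2.55, adjusted p 0.0017), or 4.23-fold. For Acta2 the difference of the responses was -0.56 with a 95% interval of -2.36 to 1.23, which spans differences in both directions.

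Without both normoxia samples numbered 2, Cnn1 was still the only gene with a larger response in ΔN-VEGF cells (1.86), where 25.8% of tested genes had one. Then 6 genes had a smaller one, where 27% did: Acta2 (-1.62), Actg2 (-1.26), Tpm1 (-0.68), Tpm2 (-0.60), Srf (-0.50) and Myl9 (-0.47). All 6 were also called higher in ΔN-VEGF normoxia in the same fit, and the comparisons share those samples.

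**Figure D3:**
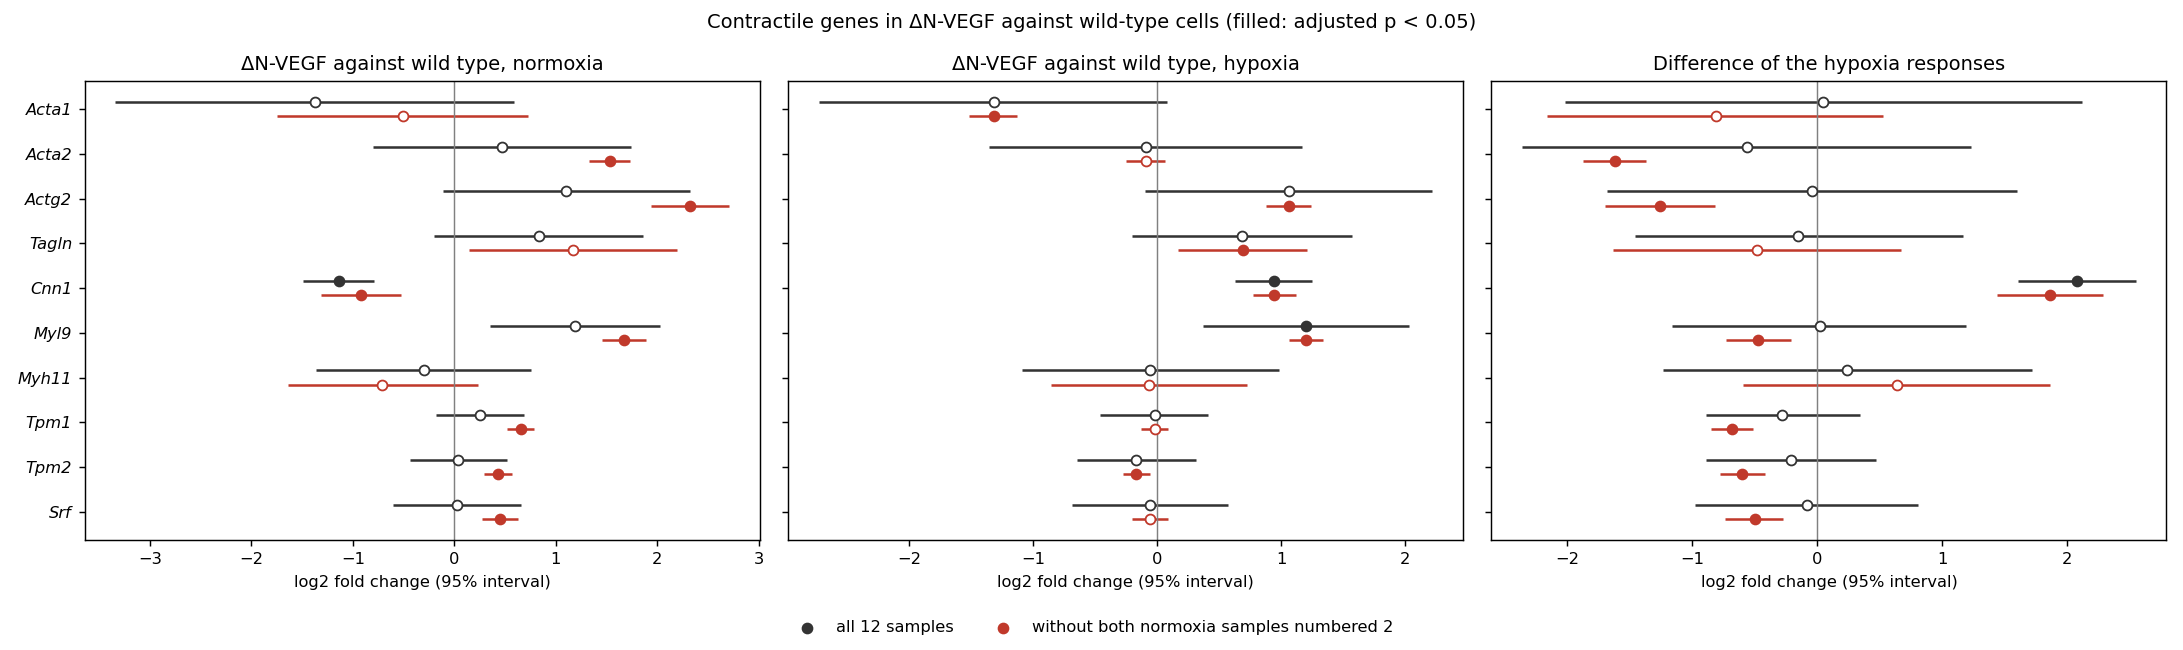
Log2 difference of ΔN-VEGF against wild-type cells in normoxia (left) and hypoxia (middle), and the difference of the hypoxia responses (right), with 95% intervals, over all 12 samples (black) and without both normoxia samples numbered 2 (red), filled where called. Cnn1 is filled in all panels and both colours, and in black only Myl9 in hypoxia is filled beside it.

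Levels between genes were compared per kilobase of exon. In wild-type hypoxia the order was Acta2 (1296 CPM per kilobase), Tpm2 (334), Tpm1 (318), Myl9 (46.9), Srf (31.0), Actg2 (22.0), Acta1 (19.0), Cnn1 (2.67), Tagln (0.394) and Myh11 (0.0396). Tpm2 and Tpm1 overlapped in range, as did Actg2 and Acta1, but within every wild-type hypoxia sample Tpm2 was above Tpm1 and Actg2 above Acta1. In ΔN-VEGF hypoxia the order was Acta2 (1215), Tpm1 (314), Tpm2 (297), Myl9 (108), Actg2 (45.9), Srf (29.9), Acta1 (7.58), Cnn1 (5.13), Tagln (0.632) and Myh11 (0.0385). The tropomyosins overlapped in range, with Tpm1 above Tpm2 within every sample.

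In ΔN-VEGF normoxia Acta2 had the highest mean, at 285 CPM per kilobase. In wild-type normoxia its mean of 206 rested on sample 2 (462). In samples 1 and 3 Acta2 was at 82.1 and 73.1 CPM per kilobase, below Tpm2 at 91.6 and 87.9. The ranges of Srf and Myl9 overlapped in normoxia in both lines. Within each wild-type normoxia sample Srf was above Myl9, at 19.7 against 6.78, 42.9 against 19.0 and 16.6 against 5.70. In ΔN-VEGF normoxia it was above in samples 1 and 3 but not in sample 2. The ranges of Cnn1, Tagln and Acta1 also overlapped in ΔN-VEGF normoxia, all with a mean under 0.31 CPM per kilobase.

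The contractile genes were also set against the other genes of their protein families as shares of the family's summed CPM per kilobase. Acta2 made up 7.64%, 15.3% and 7.42% of actin transcripts in wild-type normoxia and 33.8%, 34.9% and 33.6% after hypoxia. The ΔN-VEGF shares were 11.5%, 17.3% and 11.3% in normoxia and 31.9%, 34.3% and 32.7% in hypoxia. Cytoplasmic beta-actin, Actb, held 64.2% to 69.2% in wild-type normoxia and 42.3% to 44.1% in hypoxia. The share of Actg1, the other cytoplasmic actin, is uncertain, since 32.7% of its 80-base stretches also occur in other annotated genes. The shares of the other actins depend on the same sum.

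Tpm1 held 15.7% to 16.4% of tropomyosin transcripts in wild-type normoxia and 26.3% to 26.7% in hypoxia, and in ΔN-VEGF cells 16.1% to 16.4% and 26.8% to 27.6%. Here the samples numbered 2 lay with their groups, although the level of Tpm1 in wild-type normoxia did not. These shares are uncertain, since 18.5% and 11.4% of the 80-base stretches of Tpm3 and Tpm4 also occur in other annotated genes. Myl9 held 26.0% to 41.6% of the regulatory light chains in normoxic wild-type cells, 57.8% to 61.0% after hypoxia, 48.0% to 58.9% in ΔN-VEGF normoxia and 75.1% to 77.1% in ΔN-VEGF hypoxia. Of the 80-base stretches of its relatives Myl12a and Myl12b, 18.1% and 24.6% also occur in other annotated genes, some of them in each other. Their split and the share of Myl9 are therefore uncertain.

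Cnn1 was at most 0.576% of calponin transcripts in any sample, and Cnn2 held 68.2% to 89.3%. Tagln was at most 0.207% of transgelin transcripts, with the rest from Tagln2. Myh11 was at most 0.0305% of the 3 heavy chains Myh9, Myh10 and Myh11.

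**Figure D4:**
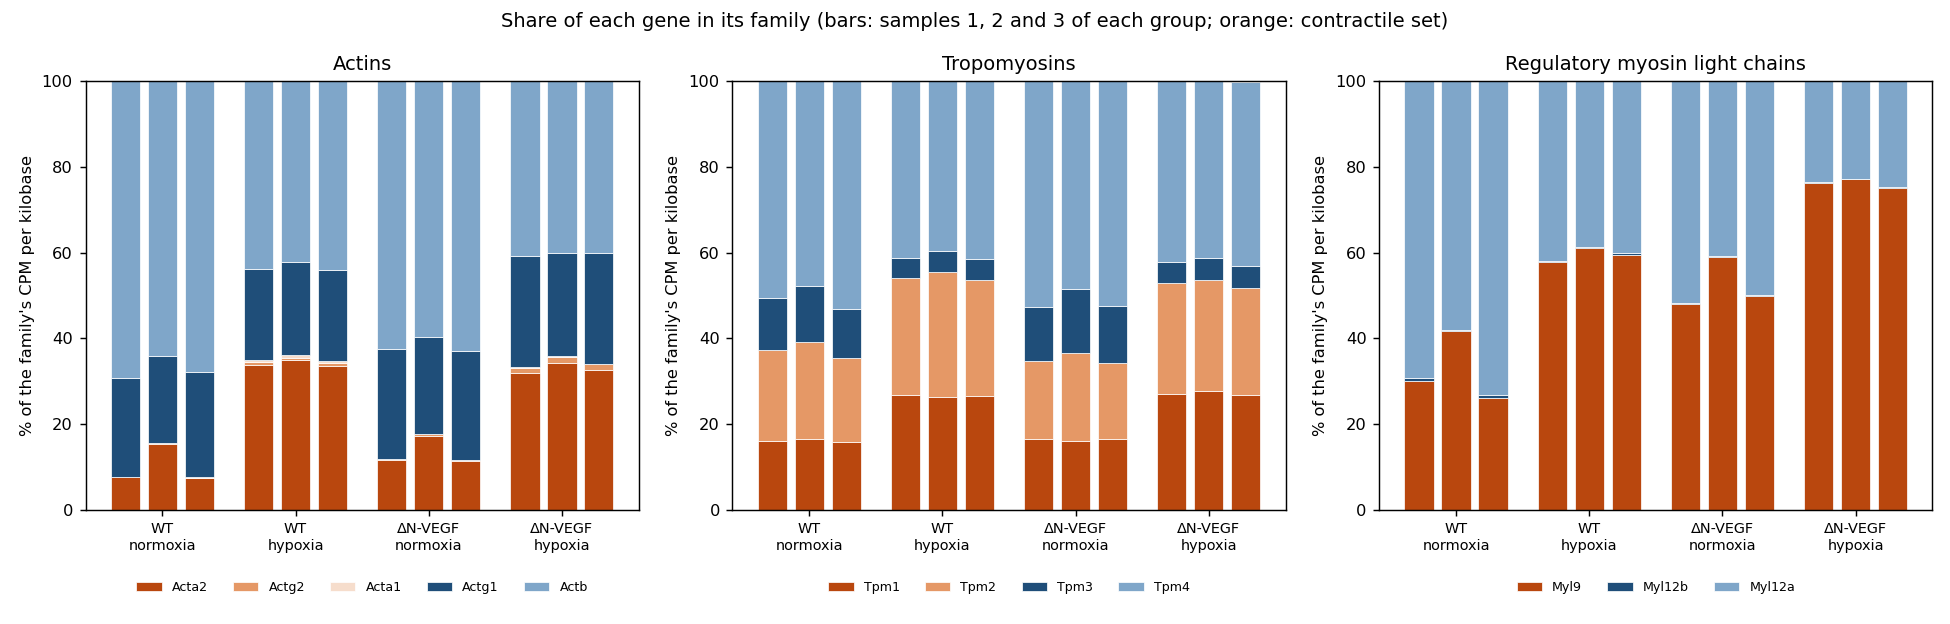
Share of each gene in its family's summed CPM per kilobase (bars start at 0%) in the 3 samples of each group, with the contractile genes in shades of orange and their relatives in shades of blue. Acta2 fills between 31.9% and 34.9% of the actin bars in all 6 hypoxia samples, and at most 17.3% in normoxia.

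Few of the cofactors of SRF were called. Myocd, the smooth-muscle cofactor myocardin, had at most 3 reads in any sample and was not tested. Mrtfa, the actin-sensing cofactor of fibroblasts, had mean levels of 140 to 163 CPM and was not called by edgeR in any comparison over the 12 samples. Its relative Mrtfb was called higher in ΔN-VEGF hypoxia, by 0.30 against ΔN-VEGF normoxia (adjusted p 0.0071) and by 0.38 against wild-type hypoxia (adjusted p 0.0059), calls that were lost with scaling to total counts. Elk1, a ternary complex factor, was lower in hypoxia, with a log2 change of -0.54 for wild type (adjusted p 0.001) and -0.36 for ΔN-VEGF (adjusted p 0.0071). Elk3 and Elk4, of the same family, were not called by edgeR over the 12 samples. Elk4 was called higher in ΔN-VEGF hypoxia with DESeq2 (0.25, adjusted p 0.034) and with the replicate block (0.25, adjusted p 0.019), and Elk3 lower with scaling to total counts (-0.57, adjusted p 8.9e-05). Without the normoxia samples numbered 2, 3 of the 5 tested cofactors were called higher and 2 lower in ΔN-VEGF hypoxia, where 35.4% and 36% of tested genes were. In wild-type hypoxia 1 was called higher and 1 lower, where 32.8% and 32.5% were.

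Of 20 other contractile and thin-filament genes, 14 were called higher and 1 lower in wild-type hypoxia, with a median log2 change of 0.81, where 18.2% of all tested genes were called higher and 18.3% lower. In ΔN-VEGF cells 12 were called higher and 1 lower, with a median of 0.85, where 26.9% and 26.4% were. Synpo2, an actin-bundling protein of muscle, rose by 4.12 in the wild type (adjusted p 4.5e-06) and by 1.98 in the ΔN-VEGF line (adjusted p 0.00029). The difference of the responses, -2.14, was called (adjusted p 0.029), and so was that between the lines in hypoxia (-1.24, adjusted p 0.012). Lmod1, which nucleates actin filaments in smooth muscle, rose by 1.99 and 2.1, and Tgfb1i1, a focal adhesion protein, by 1.91 and 1.88. The gene called lower in both lines was Myh10, a non-muscle myosin heavy chain (-0.68 and -1.2).

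Fhl1, a LIM-domain protein of muscle, had 21.8 to 22.2 CPM in wild-type hypoxia and 0.644 to 1.28 CPM in ΔN-VEGF hypoxia, a difference of -4.39 (SE 1.08, adjusted p 0.016). It rose by 2.72 in the wild type (adjusted p 0.046). Desmin (Des), the intermediate filament of muscle, was lower in ΔN-VEGF normoxia (log2 difference -1.8, adjusted p 0.036), a call that was lost with the replicate number as a block. Csrp2 was higher in ΔN-VEGF hypoxia by 0.51 (adjusted p 0.033), a call that was lost with scaling to total counts. Without the normoxia samples numbered 2, 16 of the 20 genes were called higher and 4 lower in hypoxia for wild type, and 15 higher and 2 lower for ΔN-VEGF, where 32.8% and 35.4% of tested genes were called higher. With scaling to total counts, the numbers were 12 and 2, where 12.8% of tested genes were called higher and 32.7% lower, and 9 and 2, where 15.3% and 44.5% were.

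Of 14 broadly expressed cytoskeletal targets of SRF, 6 were called higher and 0 lower in wild-type hypoxia, where 18.2% of all tested genes were called higher and 18.3% lower. In ΔN-VEGF hypoxia 6 were called higher and 1 lower, where 26.9% and 26.4% were. In wild-type cells Actg1 rose by 1.14 (adjusted p 0.0099), Flna, a cross-linker of actin, by 0.95 (adjusted p 0.0082) and Mical2, an enzyme that oxidises actin, by 0.87 (adjusted p 0.00013). In ΔN-VEGF cells the focal adhesion protein Vcl rose by 1.01 (adjusted p 6.8e-06), Tuft1 by 0.91 (adjusted p 0.00084) and Actg1 by 0.85 (adjusted p 0.028). Between the lines in hypoxia 2 of the 14 were called higher in ΔN-VEGF cells, where 10.8% of tested genes were, and 2 lower, where 9.36% were. Of these Tuft1 was higher by 0.9 and Vcl by 0.48, and Mical2 was lower (-0.43). With scaling to total counts the numbers in hypoxia were 5 and 0 for wild type and 2 and 2 for ΔN-VEGF, where 12.8% and 15.3% of tested genes were called higher. They were 12 and 0, and 10 and 1, without the normoxia samples numbered 2, where 32.8% and 35.4% were. The median changes, of 0.58 and 0.33, were below those of the contractile genes. This is a description of the lists, with no test between them.

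The immediate early targets of SRF, which answer to the ternary complex factors, were called in both directions. Of 7 genes, 1 was called higher and 2 lower in wild-type hypoxia, near the 18.2% and 18.3% of all tested genes. There Fos rose by 2.73 (adjusted p 9.3e-05) while Egr3 (-1.70) and Egr1 (-0.90) fell. In ΔN-VEGF hypoxia 3 were called higher and 1 lower, where 26.9% and 26.4% of tested genes were, with Fos at 3.39, Egr3 at -1.52 and Junb at 0.78. In normoxia Egr3 was higher in ΔN-VEGF cells (1.08, adjusted p 0.015). Between the lines in hypoxia, 5 of 7 were called higher in ΔN-VEGF cells, where 10.8% of tested genes were, and 0 lower, among them Egr1 (1.54, adjusted p 0.0051), Fos (1.4, adjusted p 0.0094) and Egr3 (1.27, adjusted p 0.0026). For these genes the response itself was not called as different between the lines (0 of 7 with edgeR, 2 at an unadjusted p under 0.05, and 2 with DESeq2). It was called as larger in ΔN-VEGF cells for 4 of 7 without the normoxia samples numbered 2, where 25.8% of tested genes were. With scaling to total counts, 1 gene was called higher and 4 lower in wild-type hypoxia, where 12.8% and 32.7% of tested genes were. In ΔN-VEGF hypoxia 1 was then called higher and 2 lower, where 15.3% and 44.5% were. Without the normoxia samples numbered 2, the counts were 1 and 4 for wild type, where 32.8% of tested genes were called higher and 32.5% lower. For ΔN-VEGF they were 5 and 2, where 35.4% and 36% were.

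**Figure D5:**
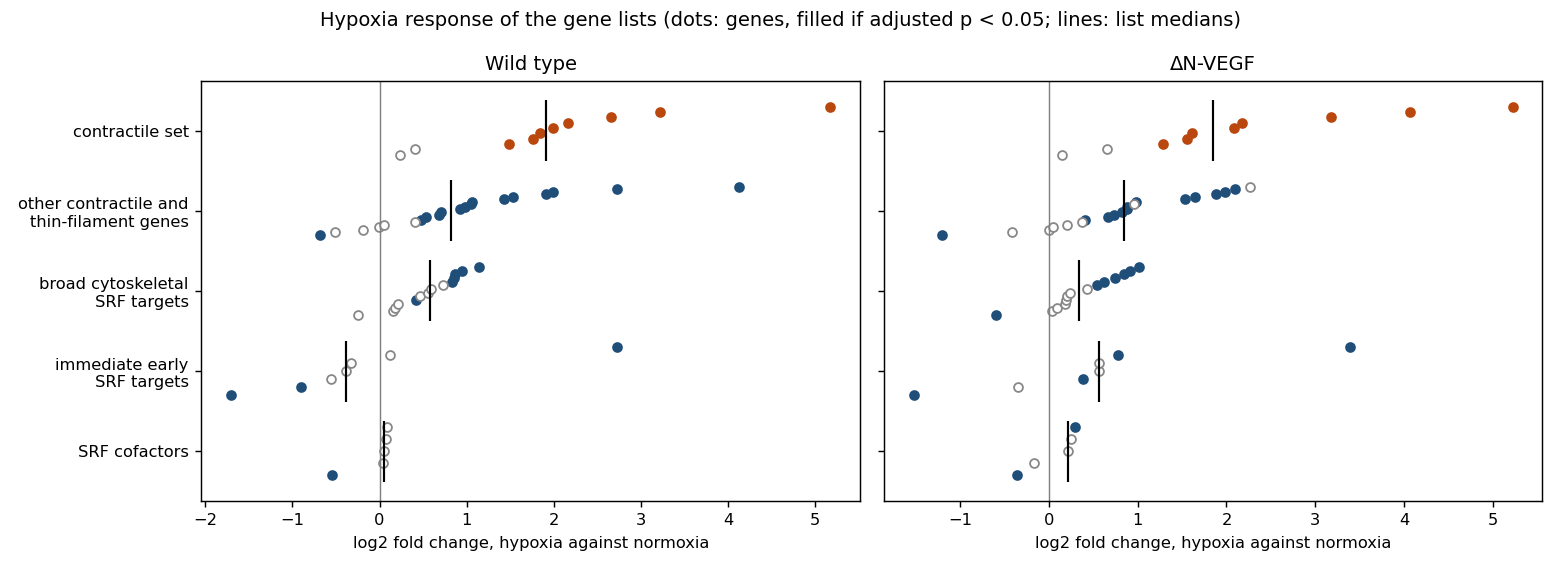
Log2 fold change in hypoxia against normoxia of the tested genes of the contractile set, the other contractile genes and the SRF lists, in wild-type (left) and ΔN-VEGF cells (right), with called genes filled and the list median as a line. The contractile set has medians of 1.92 and 1.85, and the SRF cofactors 0.05 and 0.22.

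Of 17 tested genes of the TGF-beta pathway and of myofibroblasts, 7 were called higher and 4 lower in wild-type hypoxia, where 18.2% of all tested genes were called higher and 18.3% lower. In ΔN-VEGF hypoxia 6 were called higher and 3 lower, where 26.9% and 26.4% were. With scaling to total counts the numbers were 7 and 7, where 12.8% and 32.7% were, and 4 and 4, where 15.3% and 44.5% were. The numbers without the normoxia samples numbered 2 were 8 and 8, where 32.8% of tested genes were called higher and 32.5% lower, and 11 and 5, where 35.4% and 36% were. Smad7, an inhibitor of the pathway, rose by 2.25 and 2.42, and the ligand Tgfb3 fell by 1.29 in ΔN-VEGF cells (log2 change -1.29). Ccn2, a matrix protein, rose in wild-type cells by 2.94 (adjusted p 0.014). Between the lines in hypoxia, the matrix protein Fn1 was higher in ΔN-VEGF cells (0.78, adjusted p 0.021), and the receptor Tgfbr1 (-0.53, adjusted p 0.018) and Tgfb3 (-0.42, adjusted p 0.04) were lower. Smad4, the shared transducer of the pathway, was lower in ΔN-VEGF normoxia (-0.34, adjusted p 0.025), with a called difference of the responses of 0.59 (adjusted p 0.013) that was lost with scaling to total counts.

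Markers of other cell types were looked at beside these results. The summed CPM of 9 fibroblast markers, led by Vim, Col1a2 and Col1a1, ranged for wild type from 11240 to 12470 in normoxia and from 18050 to 19760 in hypoxia. For ΔN-VEGF it ranged from 10800 to 11800 in normoxia and from 25020 to 27110 in hypoxia. Its genes did not move alike. In wild-type hypoxia 2 of the 8 tested were called higher, where 18.2% of all tested genes were, and 3 lower, where 18.3% were. The 3 were the matrix protein Dcn (-2.8) and the growth factor receptors Pdgfra (-2.32) and Pdgfrb (-1.94). In ΔN-VEGF hypoxia 3 were higher, among them Col1a1 (1.58) and Vim (1.53), and 2 lower, among them Pdgfrb (-1.44), where 26.9% and 26.4% of tested genes were. Without the normoxia samples numbered 2, the counts were 2 and 6 for wild type, where 32.8% and 32.5% of tested genes were called. They were 4 and 3 for ΔN-VEGF, where 35.4% and 36% were. Between the lines in hypoxia, Dcn (3.38, adjusted p 0.0015), Col1a1 (1.58, adjusted p 0.0053) and Col1a2 (0.79, adjusted p 0.046) were called higher in ΔN-VEGF cells and 0 of the 8 lower, where 10.8% and 9.36% of tested genes were. The counts were 2 and 1 with scaling to total counts, where 4.57% and 22.2% were. They were 5 and 1 without the normoxia samples numbered 2, where 27.5% and 28.3% were. The response of Dcn was also called as different between the lines (2.88, adjusted p 0.041), a call that was lost with the replicate block. Of 6 vascular smooth muscle and pericyte markers, Pln was at 0 in all samples, Kcnmb1 and Rgs5 had at most 1 and 2 reads, and Cspg4 made up most of the sum, which was 195 to 302 CPM over all groups. In wild-type hypoxia 0 of the 3 that were tested were called by edgeR or DESeq2 and 1, Mcam, had an unadjusted p under 0.05. Without the normoxia samples numbered 2, 1 of the 3 was called higher and 2 lower there, where 32.8% and 32.5% of tested genes were. Mcam was called lower in ΔN-VEGF hypoxia (-1.31, adjusted p 0.044). Of 13 skeletal and cardiac markers, Myod1, Myf5 and Tnnc2 were at 0 in all samples and Actc1, the cardiac actin, had at most 1 read. The sum of this list was 8.99 to 21.7 CPM for wild type in normoxia, 13.6 to 15.1 CPM for wild type in hypoxia, 0.809 to 8.17 CPM in ΔN-VEGF normoxia and 4.89 to 7.11 CPM in ΔN-VEGF hypoxia, with overlap in each line. It came mostly from the troponins Tnnt3, which fell in wild-type hypoxia (-5.24, adjusted p 0.0043), and Tnnt2, whose levels lay the other way there. Tnnt2 was at 0.231 to 8.27 CPM in wild-type normoxia and at 12.6 to 14.2 CPM in wild-type hypoxia. Its difference of 2.22 was not called (adjusted p 0.2), but it was called with the replicate block (3.76, adjusted p 0.023) and without the normoxia samples numbered 2 (5.49, adjusted p 1e-14). Myh7, a cardiac myosin heavy chain, had 0 reads in ΔN-VEGF normoxia and was called higher in ΔN-VEGF hypoxia, at 0.521 to 0.933 CPM (adjusted p 6.2e-05).

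Endothelial, epithelial and macrophage lists of 5 genes each had sums of at most 25.7, 8.80 and 59.0 CPM. The genes Cdh5, Krt19, Csf1r and Cd68 of these lists were called higher in hypoxia in both lines. In ΔN-VEGF hypoxia Pecam1 was also called higher (1.17, adjusted p 0.0068) and Krt8, with at most 2 reads there, lower (-2.61, adjusted p 0.026). With scaling to total counts, 1 endothelial gene rather than 2 was called higher in ΔN-VEGF hypoxia, and 1 macrophage gene rather than 2 in each line. That scaling called 12.8% of tested genes higher in wild-type and 15.3% in ΔN-VEGF hypoxia. Between the lines in hypoxia Cdh5 was higher in ΔN-VEGF cells (1.88, adjusted p 0.011), and Krt19 (-3.38, adjusted p 8.6e-05), Krt8 (-3.31, adjusted p 0.018) and Tie1 (-1.7, adjusted p 0.0057) were lower. Of the others, Epcam was at 0 and Kdr, Ptprc and Adgre1 had at most 2 reads in any sample. The part of any other cell type in the results was not tested.

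The genes outside the lists whose log2 CPM was most like that of Acta2 over the 12 samples were Cyr61 (Pearson r 0.995), Arpc2 (0.989), Ccdc115 (0.989), Cmas (0.988) and Gm17501 (0.988). Of the contractile genes, Tpm2 (0.973), Actg2 (0.967) and Tpm1 (0.963) were nearest to Acta2, and Cnn1 (0.777), Srf (0.745) and Myh11 (0.127) farthest. The samples fall into normoxia and hypoxia, and the normoxia samples numbered 2 stand apart within normoxia, so the points of each correlation are not alike. Within normoxia the r of Cyr61 was 0.99, and within hypoxia it was 0.05. For Cnn1 these were -0.38 and -0.32, and for Srf 0.94 and 0.82. Cyr61, a matrix protein, was called higher in wild-type (2.7, adjusted p 0.015) and ΔN-VEGF hypoxia (2.49, adjusted p 0.015) and was not called between the lines. It was picked by its likeness to Acta2, which rose in hypoxia, so these rises are not independent of that choice. Its wild-type levels were 37, 282 and 33 CPM in normoxia and 737, 810 and 750 CPM in hypoxia, so sample 2 raised the normoxia mean.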

How the data were processed

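Total RNA of the 12 samples was made into TruSeq libraries and sequenced as 80-base single reads. The authors trimmed the reads with Trim Galore, aligned them with TopHat2 2.1.0 and Bowtie2 2.2.6 to GRCm38 (Ensembl release 94), and deposited raw counts per gene from HTSeq-count 0.6.1. The strand setting is not given in the sources used here. Groups and replicate numbers were taken from the labels.

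Counts were analysed with edgeR 4.0.16 in R 4.3.3: the filterByExpr filter, TMM scaling, 1 mean per group over all 12 samples and the quasi-likelihood F test, with Benjamini-Hochberg adjustment over 14724 genes for each of 5 comparisons. Log2 CPM used a prior count of 2. The scripts were tested on simulated counts. The 10 genes and all lists were chosen with earlier results of these data known. All 10 are described, as are the SRF cofactors. Of each other list, up to 3 called genes per comparison with the largest change and a mean of at least 1 CPM were named, and 5 genes outside the lists, with a mean of at least 10 CPM, by their correlation with Acta2. Myh10, Tnnt2, Myh7, Krt8, Pecam1, Tgfb1i1 in wild-type cells and the families were chosen after the values were seen. Exon lengths and shared 80-base stretches came from GENCODE for GRCm38.

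Samples with the same number deviated from the means of their groups together in normoxia, with correlations of 0.38, 0.50 and 0.36 between the lines. Samples 1 and 3 correlated across numbers as strongly (0.36 and 0.35). In the other comparisons the correlations of samples with the same number were -0.02 to 0.11. The main fit did not pair samples by number, and a block for the number was run only as an alternative. Alternatives were DESeq2 1.42.0 (Wald test), other scalings and filters, a fold threshold, a block for the replicate number, only the 6 samples compared, and samples left out. A further list and a gene of another list are not reported here.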

Additional observations from a re-analysis of the deposited data

Results flagged for a closer look

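The response of Cnn1 to hypoxia differed between the lines. The interaction term was 2.08 on the log2 scale (SE 0.21, adjusted p 0.0017 by edgeR's quasi-likelihood test), with Cnn1 lower in all 3 ΔN-VEGF samples than in all 3 wild-type samples in normoxia and higher in all 3 in hypoxia. It rests on 29 to 98 reads per sample in normoxia and 219 to 460 in hypoxia.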

How the results depend on the processing

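The 8 rises with hypoxia in each line kept their direction under all alternatives in which the genes were tested. The calls lost were those of Tagln in the wild type with only the 6 samples compared (adjusted p 0.052, and 0.091 with the block) and of Acta2 in ΔN-VEGF cells without normoxia sample 3 (1.92, adjusted p 0.05 after rounding). Between the lines in normoxia, where 1 gene was called, 2 were called with DESeq2, with no filter on low counts and with the replicate block, 0 of the 8 tested with only the 6 samples compared (with or without the block), 7 without both normoxia samples numbered 2, and 1 to 8 when each of the 6 normoxia samples was left out in turn. In hypoxia, where 2 genes were called, 1 was called at a fold change of at least 2, 6 without both normoxia samples numbered 2, 6 with only the 6 samples compared, with or without the block, and 1 with each of the 6 hypoxia samples left out. For the difference of the responses, 7 genes were called without both normoxia samples numbered 2, and 1 to 8 with each of the 12 samples left out, 8 being without sample 2 of wild-type normoxia. There, the uncalled interaction of Myl9 (0.02) turned to -0.47 and was called without both samples numbered 2, and ranged from -0.75 to 0.31 with each sample left out, and that of Acta1 (0.05) from -1.97 to 1.21. The interaction of Cnn1 was called under every alternative, at 1.86 to 2.18. The replicate block changed no other count of contractile genes called. Scaling to total counts moved the median of all genes from -0.07 to -0.30 in wild-type and from -0.01 to -0.41 in ΔN-VEGF hypoxia, with 12.8% of genes called higher and 32.7% lower in the first and 15.3% and 44.5% in the second, and changed no count of contractile genes called. DESeq2 gave no adjusted p for Acta2. Where sample 2 of wild-type normoxia is left out its group has 2 samples. The cause of these changes was not tested. Depth limits Tagln and Myh11, with at most 46 and 17 reads.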
